A study of Mus musculus with 16 samples.

Results

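The vessel wall of the neonatal mouse cochlea was followed through 36 genes listed as markers, 30 of endothelial cells and 6 of pericytes. Some of them are also expressed in other cell types (below). The 36 genes were chosen by gene symbol from a list that was drawn up with earlier results of these data known. Counts over them therefore describe the list and do not test it. All 36 were found among the 47729 genes with values, and all 36 were among the 16994 genes that reached the expression minimum and were tested. RNA was measured by RNA-seq in 16 libraries of mouse cochlea at postnatal day 4 (P4). They formed 4 groups of 4 replicates, named by genotype (control or DTR) and by RNA fraction (input or IP). Control mice carried the GLAST-CreERT and Rpl22-HA (RiboTag) alleles. DTR mice carried these and the Lgr5-DTR allele, which places the diphtheria toxin receptor under the Lgr5 locus, so that diphtheria toxin kills Lgr5+ supporting cells. By the methods, both genotypes received diphtheria toxin and tamoxifen after birth, whereas the sample labels give no treatment for control libraries and DTR treated for DTR libraries. GLAST-CreERT is driven from Slc1a3, the glutamate transporter gene of glia-like cells. In recombined cells Rpl22-HA puts an HA tag on ribosomes, and RNA bound to tagged ribosomes was immunoprecipitated (IP). The input was RNA from 5% of the same homogenate before the antibody was added. Each replicate was a pool of cochleae from several mice, and input and IP with the same number came from the same pool. The spiral ganglion, the lateral wall with its stria vascularis, and Reissner's membrane had been dissected away. The vessels measured are those of the tissue that was kept. That tissue still held neuron RNA, in amounts that varied with replicate number (below). The share of vessels from ganglion left behind was not tested.

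Endothelial cells line blood vessels, and pericytes sit on the outside of capillaries within the same basement membrane. Endothelial growth and survival depend on VEGF acting on the receptors Kdr and Flt1 and on angiopoietins acting on Tek, while PDGF-B from endothelial cells recruits pericytes through Pdgfrb. Many cochlear capillaries form a blood-labyrinth barrier, in which transporters of the endothelium control what reaches the inner ear fluids.

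Reads counted on genes ranged from 28089836 to 41966310 per library. For control mice the group median was 40003148 reads in input and 33732275 in IP, and for DTR mice it was 33343176 and 30298551. Values are given as CPM, the reads of a gene scaled to a common library total. A gene seen at 0 could have been present at up to 3 reads, worth 0.0715 to 0.107 CPM, counting error alone considered. The smallest value of any of the 36 genes was 7 reads, for Abcb1a in a control IP library. The labels were checked against marker genes. Lgr5, the gene at which the toxin receptor was inserted, was 63.3 ± 3.03 CPM (SD, n = 4) in control input and 15.9 ± 3.69 CPM in DTR input (log2 fold change -2.00, SE 0.15, adjusted p = 2.23e-08). Slc1a3 was 281 ± 14.3 CPM in control input and 236 ± 21.9 CPM in control IP, and the IP did not pass the test for a difference from input (log2 fold change -0.20, SE 0.09, adjusted p = 0.102). The endothelial markers Cdh5 and Cldn5, which encode junction proteins and were not among the 36, were detected in every group, at 14.5 and 26.1 CPM in control input.

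Levels were compared between genes per kilobase of exon, since CPM grows with transcript length. In control input the highest levels per kb were those of Pdgfrb, the PDGF-B receptor of pericytes, at 35.1 ± 3.13 CPM per kb (SD, n = 4), Rgs5, a regulator of G protein signalling that marks pericytes, at 32.1 ± 4.502, and Emcn, an endothelial sialomucin, at 31.8 ± 2.203. The difference between Rgs5 and Emcn was smaller than the SD of either gene, while that between Pdgfrb and Emcn was larger than both SDs. Slc2a1, the glucose transporter GLUT1, followed at 25.8 ± 3.14 CPM per kb. The pan-endothelial marker Pecam1 (CD31) stood at 2.83 ± 0.454 CPM per kb, close to Kdr at 2.99 ± 0.335. At the bottom of the order were Flt4, the VEGF-C receptor of lymphatic and sprouting endothelium, at 0.4204 ± 0.0436 CPM per kb and Vwf, the clotting factor stored in endothelial granules, at 0.1697 ± 0.0392. The order differed in control IP, where Mfsd2a, the lipid transporter of brain endothelium, came highest at 26.1 ± 0.341 CPM per kb, ahead of Slc2a1 at 21.7 ± 2.301 and Mcam, an adhesion molecule of pericytes and endothelium, at 18.2 ± 1.55. Some of these genes are also expressed in other cell types, as Slc2a1 in epithelia and Pdgfrb in fibroblasts, and the files do not tell the cell type of origin.

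**Figure D1:**
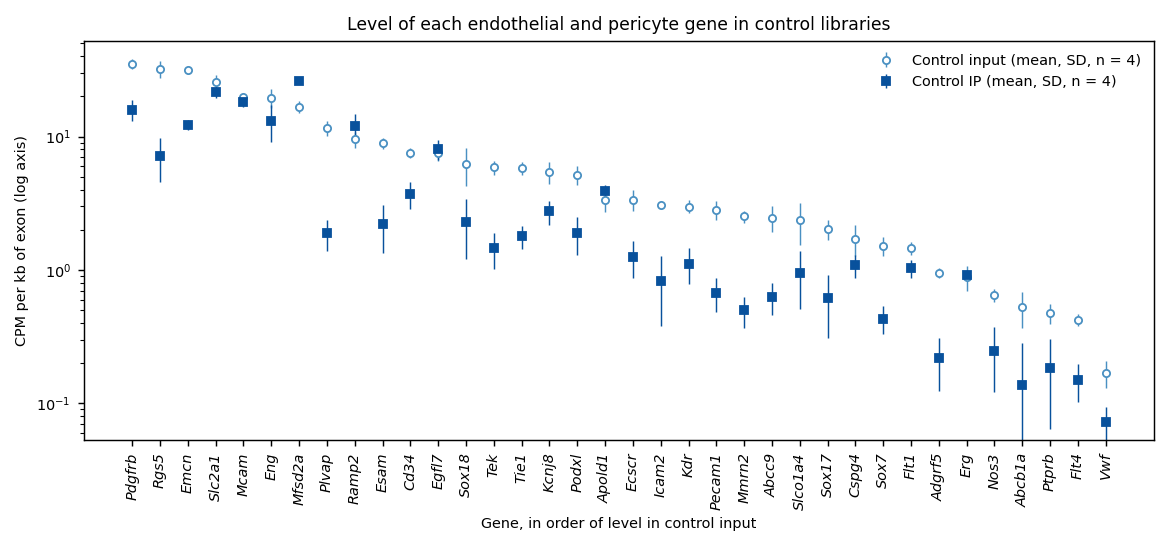
Level of each of the 36 genes in control input (open circles) and control IP (filled squares), as CPM per kb of exon on a log axis, with genes in order of level in control input. Points are means and bars SD over 4 libraries, and bars that reach 0 or below run off the axis. Most squares lie below their circles, while Mfsd2a, Ramp2, Egfl7, Apold1 and Erg have the square at or above the circle.

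The first question was how far the IP, made to enrich RNA of GLAST-Cre+ cells, carried vascular RNA. In control cochleae 28 of 36 genes fell in the IP against input, 1 rose and 7 did not pass the test (80.6% called, limma with Benjamini-Hochberg adjustment, two-sided, adjusted p under 0.05). Over all 16994 genes tested, 20.7% were called lower and 19.3% higher in that comparison. The median log2 fold change was -1.24 over the 36 genes and -0.0012 over all genes tested, and the range over the 36 was -2.41 to 0.63. The 4 IP values did not overlap the 4 input values for 26 of the 36 genes and for 38.7% of all genes tested. With the pool as a block 31 of the 36 and 48.8% of all genes were called. The summed level of the 36 genes was 1253 ± 60.99 CPM (SD, n = 4) in control input and 665 ± 64.1 CPM in control IP, or 53.1% of input.

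The deepest fall was that of Plvap (chr8:71497765-71511752, minus strand, GRCm38, GENCODE M21), which forms the diaphragms of fenestrated capillaries. Its 4 control input libraries, in the order of replicates 1 to 4 used throughout, had 26.1, 24.7, 21.2 and 20.03 CPM, and the control IP libraries had 3.74, 5.01, 2.65 and 3.53 CPM. Every IP value lay far below every input value, a fall of 5.32-fold on the log2(CPM + 0.5) scale (log2 fold change -2.41, SE 0.17, adjusted p = 4.56e-09). Within pools, the IP held 14.3, 20.2, 12.5 and 17.6% of the input CPM. Plvap overlaps Gtpbp3 on the opposite strand.

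Rgs5 (chr1:169655501-169695813, plus strand), a marker of pericytes, fell nearly as far. Its input values were 163, 152, 116 and 153 CPM and its IP values 32.98, 47.3, 31.9 and 18.4 CPM, with no overlap (log2 fold change -2.19, SE 0.20, adjusted p = 1.38e-07). Control IP replicate 2 was the highest and replicate 4 the lowest of the IP values. Abcc9 (chr6:142587862-142702315, minus strand), the sulfonylurea receptor subunit that pairs with the potassium channel Kcnj8 in pericytes, had 26.1, 20.1, 15.1 and 21.2 CPM in input and 6.399, 6.55, 4.14 and 3.99 CPM in IP (log2 fold change -1.81, SE 0.29, adjusted p = 7.11e-05). Pdgfrb had 198, 167, 199.8 and 204 CPM in input and 87.2, 89.6, 66.7 and 104 CPM in IP, a smaller fall with no overlap (log2 fold change -1.12, SE 0.17, adjusted p = 3.82e-05). Kcnj8 fell by 0.87 on the log2 scale (adjusted p = 0.0291) and Cspg4, the NG2 proteoglycan, fell by 0.61 (adjusted p = 0.0214). Mcam had a log2 fold change of -0.12 and did not pass the test, so 5 of 6 pericyte genes fell. Their median log2 fold change was -0.99, with a spread from Mcam to Rgs5 far wider than any SE.

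Among the 6 receptors, 5 fell, with a median log2 fold change of -1.25. Tek (chr4:94739289-94874976, plus strand), the angiopoietin receptor TIE2, had 30.5, 27.5, 23.02 and 29.7 CPM in input and 9.12, 7.94, 5.26 and 5.002 CPM in IP. Even the highest IP value lay far below the lowest input value (log2 fold change -1.91, SE 0.21, adjusted p = 1.23e-06). Its partner Tie1 had a log2 fold change of -1.63 (SE 0.19). Kdr (chr5:75932827-75978458, minus strand), the main signalling receptor for VEGF-A, had 29.4, 23.5, 25.4 and 29.7 CPM in input and 9.21, 14.1, 10.02 and 6.898 CPM in IP (log2 fold change -1.39, SE 0.20, adjusted p = 2.50e-05). Flt1, the decoy-like VEGF receptor, had 19.7 ± 2.11 CPM in input and 13.9 ± 2.17 CPM in IP, and missed the threshold (log2 fold change -0.47, SE 0.19, adjusted p = 0.0537) although its groups did not overlap. With the replicate pool as a block Flt1 passed (limma, adjusted p = 0.0192). Flt4, whose VEGF-C signal drives lymphatic growth, fell by 1.11. Eng, the TGF-beta family co-receptor endoglin, fell by 0.60 on the log2 scale with overlapping groups (adjusted p = 0.0393). It was not called by edgeR (adjusted p = 0.0768) or DESeq2 (adjusted p = 0.0511), which leaves 4 of the 6 receptors called lower by those tools. The 95% intervals of Flt1 (-0.87 to -0.08) and Tek (-2.36 to -1.46) did not meet, although the difference between the genes was not tested.

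The adhesion, junction and surface genes fell in 10 of 11 cases, with a median of -1.41. Esam (chr9:37528078-37538319, plus strand), an endothelial junction protein, had 24.4, 24.2, 24.3 and 29.2 CPM in input and 5.801, 10.04, 4.91 and 4.64 CPM in IP (log2 fold change -1.92, SE 0.16, adjusted p = 4.48e-08). Pecam1 (chr11:106654217-106750628, minus strand) had 16.3, 16.7, 15.7 and 21.8 CPM in input and 3.59, 6.02, 3.64 and 3.56 CPM in IP (log2 fold change -1.87, SE 0.17, adjusted p = 7.93e-08). In both genes control IP replicate 2 stood above the other 3 IP libraries but below every input library. Mmrn2 (chr14:34375465-34404287, plus strand), a matrix glycoprotein secreted by endothelium, had 8.58, 10.8, 10.8 and 9.96 CPM in input and 1.82, 2.68, 1.41 and 2.03 CPM in IP, again with no overlap (log2 fold change -1.99, SE 0.21, adjusted p = 7.97e-07). The other surface genes fell by smaller amounts. On the log2 scale the fall was 1.83 for Adgrf5, an adhesion G protein-coupled receptor, 1.57 for Icam2, an intercellular adhesion molecule, and 1.41 for Podxl, a luminal sialomucin. It was 1.34 for Emcn, 1.24 for Ptprb, the phosphatase VE-PTP that acts on Tek, 1.13 for Ecscr and 1.04 for Cd34, a sialomucin also found on blood progenitors. The exception was Ramp2, which makes the calcitonin receptor-like receptor Calcrl respond to adrenomedullin. Ramp2 (chr11:101246028-101259546, plus strand) had 36.98, 32.5, 26.6 and 29.99 CPM in control input and 52.4, 39.96, 31.6 and 34.3 CPM in control IP and did not pass the main test (log2 fold change 0.29, SE 0.13, adjusted p = 0.1). It was called higher with the pool as a block (limma, adjusted p = 0.0244), by edgeR (adjusted p = 0.0336) and by DESeq2 (adjusted p = 0.0361). It overlaps Vps25 on the same strand.

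The transcription factors were split. Sox7, Sox17 and Sox18, the SOXF factors that specify endothelium, fell by 1.40, 1.53 and 1.25 on the log2 scale. Erg (chr16:95359169-95586593, minus strand), an ETS factor that maintains endothelial identity, had 3.72, 3.46, 2.61 and 2.38 CPM in control input and 2.78, 3.35, 3.44 and 3.24 CPM in control IP, with overlapping groups and no call (log2 fold change 0.19, SE 0.18, adjusted p = 0.427). Among the secreted and intracellular genes Mmrn2 was the lowest, while Vwf fell by 0.84 and Nos3, the endothelial nitric oxide synthase, fell by 1.04. Egfl7, an endothelial matrix protein whose locus holds the Mir126a hairpin, had a log2 fold change of 0.06, and Apold1, a stress-responsive endothelial gene, had 0.25, and neither passed the test.

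The barrier transporters did not move as a group. Slco1a4, an organic anion transporter, and Abcb1a, the P-glycoprotein efflux pump, fell by 1.23 and 1.55 on the log2 scale. Slc2a1 had a log2 fold change of -0.23 and was not called. Mfsd2a (chr4:122946850-122961188, minus strand) was the single gene of the 36 that rose. It had 33.1, 36.7, 42.9 and 38.1 CPM in control input and 58.4, 59.3, 57.6 and 59.1 CPM in control IP, so that the 4 IP libraries agreed closely and lay above every input library (log2 fold change 0.63, SE 0.12, adjusted p = 0.000522). Within pools the IP held 177, 162, 134 and 155% of the input CPM of this gene.

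**Figure D2:**
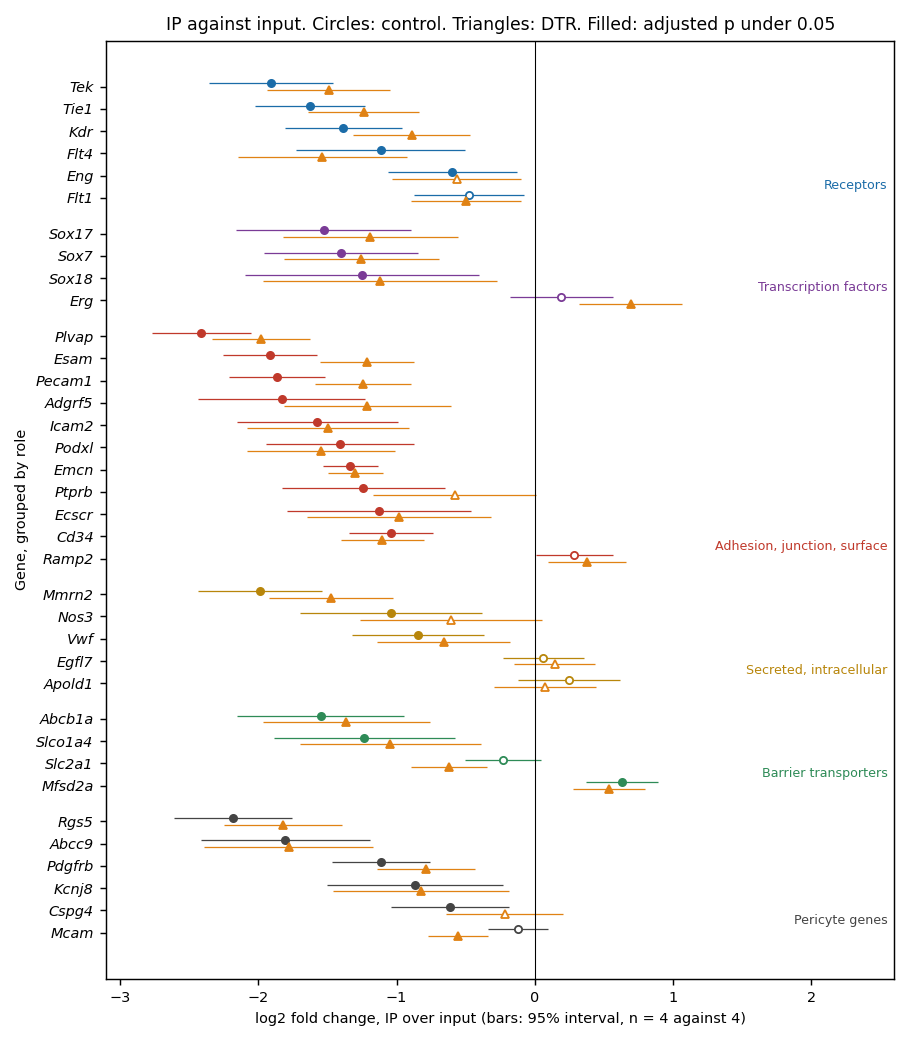
log2 fold change of IP over input for each of the 36 genes, grouped by role, in control (circles, colored by role) and DTR cochleae (orange triangles), with 95% intervals from limma (n = 4 against 4). Filled symbols passed an adjusted p under 0.05. Most genes lie left of 0 in both genotypes, from -2.41 for Plvap in control, while Mfsd2a lies right of 0 in both and Erg and Ramp2 passed by this fit in DTR and not in control, a difference that was not called when tested.

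Promoter sequence is shown for 4 of these genes, as the stretch just before the RefSeq start (GRCm38.p6), cut where the GENCODE gene begins. They were picked as a gene that fell far in the IP (Rgs5), the gene that rose (Mfsd2a), the gene that rose after damage in both input and IP (Emcn, below), and a surface gene with an ETS motif near its start (Adgrf5). Capitals mark the motif CAGGAAG or its reverse complement CTTCCTG, letters around the GGAA core that ETS factors such as Erg bind. Positions are chr1:169655251-169655500, plus strand for Rgs5, chr4:122961189-122961438, minus strand for Mfsd2a, chr3:137340828-137341066, plus strand for Emcn and chr17:43360181-43360430, plus strand for Adgrf5.
Rgs5: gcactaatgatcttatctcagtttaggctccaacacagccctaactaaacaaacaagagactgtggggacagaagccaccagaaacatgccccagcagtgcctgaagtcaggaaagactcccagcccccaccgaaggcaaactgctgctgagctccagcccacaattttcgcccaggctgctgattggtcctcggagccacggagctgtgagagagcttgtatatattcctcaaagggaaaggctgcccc
Mfsd2a: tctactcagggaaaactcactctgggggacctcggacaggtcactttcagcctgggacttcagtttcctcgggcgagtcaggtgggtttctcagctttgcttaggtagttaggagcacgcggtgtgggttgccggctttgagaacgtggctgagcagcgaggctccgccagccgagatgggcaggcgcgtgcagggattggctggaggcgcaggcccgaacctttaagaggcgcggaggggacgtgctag
Emcn: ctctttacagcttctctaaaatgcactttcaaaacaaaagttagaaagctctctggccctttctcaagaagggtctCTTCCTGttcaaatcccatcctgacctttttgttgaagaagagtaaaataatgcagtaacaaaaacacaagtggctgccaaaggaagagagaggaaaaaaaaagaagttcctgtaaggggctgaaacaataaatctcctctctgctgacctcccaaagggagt
Adgrf5: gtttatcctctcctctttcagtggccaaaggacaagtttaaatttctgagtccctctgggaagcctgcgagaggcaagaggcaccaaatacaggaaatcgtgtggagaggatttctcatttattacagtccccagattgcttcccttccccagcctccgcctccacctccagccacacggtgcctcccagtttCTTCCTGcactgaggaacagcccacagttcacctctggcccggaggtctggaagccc
RefSeq promoters were matched for 21 of the 36 genes. In the 250 bases before the start, CAGGAAG or CTTCCTG was found in 5 of the 21 (23.8%), namely Cd34, Egfl7, Emcn, Apold1 and Adgrf5, against 10.5% of 27025 promoters of the same length. It began 174 bases before the start in Emcn and 57 bases before it in Adgrf5. The related ETS motif CCGGAAG or its reverse complement was found in 0 of the 21 and in 7.1% of all promoters. Either ETS motif was found in 5 of the 21 (23.8%) and in 16.8% of all promoters. The SOX motif AACAAT or its reverse complement was found in 3 of the 21 (14.3%) and in 9.6% of all. The motifs were searched on both strands, and a match is a description of letters, not of a bound site. Only the first listed start of a gene was used, where Egfl7 had 3 and Adgrf5 had 2. The stretches used for Egfl7 and Apold1 lie inside the GENCODE genes. Of the 5 genes with CAGGAAG, Cd34, Emcn and Adgrf5 fell in the control IP, and Egfl7 and Apold1 were not called.

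In DTR cochleae 27 of the 36 genes fell in the IP against input, 3 rose and 6 did not pass the test (83.3% called, limma). Over all genes 20.5% were called lower and 18.6% higher. The median log2 fold change over the 36 genes was -1.08, against -0.027 over all genes tested, and the groups did not overlap for 26 of them and for 32.8% of all genes. With the pool as a block 32 of the 36 and 48.2% of all genes were called. The summed level was 1397 ± 159 CPM in DTR input and 767 ± 49.8 CPM in DTR IP, or 54.9% of input.

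Plvap was again the lowest gene, with 24.6, 22.4, 27.8 and 28.8 CPM in DTR input and 6.56, 5.198, 5.53 and 8.06 CPM in DTR IP (log2 fold change -1.98, SE 0.17, adjusted p = 6.34e-08). Rgs5 had 124, 132, 179 and 118 CPM in DTR input and 33.998, 38.98, 53.2 and 32.3 CPM in DTR IP (log2 fold change -1.82, SE 0.20, adjusted p = 1.62e-06). In both genes each DTR IP library lay below each DTR input library. Abcc9 had 13.1, 24.7, 13.8 and 34.2 CPM in DTR input and 3.25, 7.01, 5.67 and 6.67 CPM in DTR IP (log2 fold change -1.78, SE 0.29, adjusted p = 9.66e-05). Podxl (chr6:31519488-31563981, minus strand), the sialomucin podocalyxin of the luminal endothelial surface, had 16.4, 19.96, 23.3 and 31.4 CPM in DTR input and 10.5, 9.61, 3.91 and 7.27 CPM in DTR IP (log2 fold change -1.55, SE 0.26, adjusted p = 0.000109). The inputs of both genes were uneven, with replicate 4 far above replicate 1. Flt4 (chr11:49609263-49652739, plus strand) had 2.5997, 3.63, 3.09 and 4.84 CPM in DTR input and 0.257, 0.534, 1.76 and 1.48 CPM in DTR IP (log2 fold change -1.54, SE 0.29, adjusted p = 0.000393). The lowest of these Flt4 values rested on 8 reads.

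Genes that stood at or above input in the IP were few. Erg had 3.99, 3.27, 4.29 and 4.48 CPM in DTR input and 7.39, 7.37, 6.195 and 4.998 CPM in DTR IP, so that all IP values exceeded all input values (log2 fold change 0.69, SE 0.18, adjusted p = 0.00473). Mfsd2a had 28.04, 30.002, 31.4 and 30.5 CPM in DTR input and 53.8, 53.1, 35.1 and 40.1 CPM in DTR IP, also without overlap (log2 fold change 0.54, SE 0.12, adjusted p = 0.00209). Ramp2 had 38.1, 30.4, 31.5 and 34.2 CPM in DTR input and 46.2, 42.4, 48.8 and 41.7 CPM in DTR IP (log2 fold change 0.38, SE 0.13, adjusted p = 0.0329). Pecam1, Kdr and Tek fell by 1.24, 0.89 and 1.49 on the log2 scale, and Pdgfrb fell by 0.79. Mcam fell here by 0.56 (adjusted p = 0.000318) and Slc2a1 fell by 0.62 (adjusted p = 0.000939). By the main limma fit the 6 genes not called were Eng, Ptprb, Nos3, Egfl7, Apold1 and Cspg4, with log2 fold changes from -0.61 to 0.14, and Eng and Ptprb passed with the pool as a block (limma, adjusted p = 0.000717 and 0.0389). DESeq2 also called Eng (adjusted p = 0.0358).

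Gene lists of other cell types showed how these falls compared. Over all genes 20.7% were called lower in control and 20.5% in DTR. The summed macrophage genes stood at 20.7% of input in control IP and 28.8% in DTR IP, and 10 of 10 and 9 of 10 were called lower. Red cell genes stood at 20.7% and 25.01%, with 5 of 5 tested called lower in both, and hair cell genes at 22.9% and 31.6%, with 6 of 6 in both. Schwann cell genes stood at 29.3% and 42.7%, with 5 of 6 lower in both, and neuron genes at 45.95% and 46.8%, with 3 and 1 of 6 lower, or 5 and 5 with the pool as a block. Mesenchyme genes kept 71.9% and 89.4%, with 5 and 2 of 8 lower, and supporting cell and greater epithelial ridge (GER) genes 76.7% and 66.7%, with 5 and 3 of 8 lower. In the mesenchyme list 1 gene, Pou3f4, was called higher in DTR, and in the supporting cell and GER list Epcam and Fabp7 were called higher in control. At 53.1% and 54.9%, the 36 vascular genes lay between the macrophage and the mesenchyme lists. Medians of the log2 fold change gave another order against hair cell and neuron genes. In control they were -1.24 for the 36, -1.23 for hair cell and -1.05 for neuron genes. In DTR they were -1.08, -1.17 and -1.02. Sums give abundant genes more weight. The most abundant gene held 15.07% of the sum over all libraries among the 36 (Pdgfrb) and 21.5% for macrophages (Csf1r). It held 51.04% for red cells (Hbb-bs), 47.2% for hair cells (Otof) and 33.3% for Schwann cells (Mbp). For neurons it held 37.3% (Nefl), for mesenchyme 31.5% (Col1a2) and for supporting cells and GER 52.1% (Tecta). Differences between lists were not tested.

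**Figure D3:**
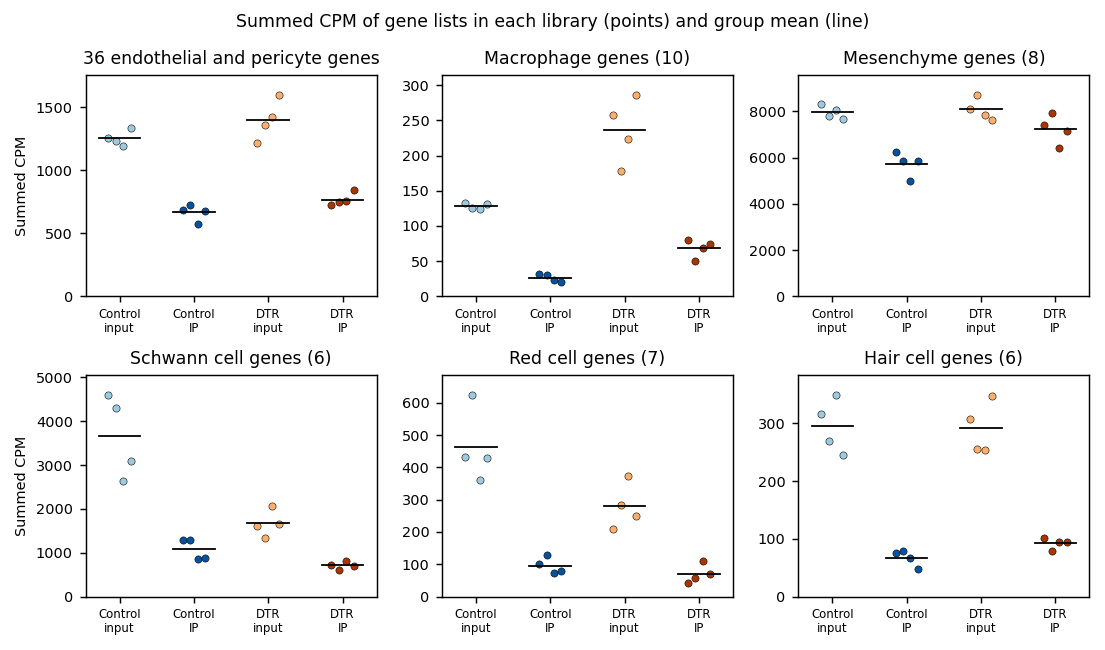
Summed CPM of the 36 endothelial and pericyte genes and of 5 lists of other cell types in each library. Points are replicates 1 to 4 from left to right within a group, and lines are group means. The 36 genes, macrophage, Schwann cell, red cell and hair cell genes are lower in every IP library than in every input library of the same genotype, and the macrophage sum is higher in every DTR library than in every control library of the same kind.

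Genes outside the 36 but of the same vessels were read beside them. Of 18 other endothelial genes tested, 10 fell in the control IP and 10 in the DTR IP, and 0 rose in either. Over all genes tested 20.7% were called lower in control and 20.5% in DTR. With the pool as a block 11 fell and 1 rose in control, and 10 fell and 0 rose in DTR. Cdh5, VE-cadherin, had log2 fold changes of -1.27 in control and -1.15 in DTR, and Cldn5, the tight junction claudin, -1.57 and -1.49, all called. Ly6c1 had the largest fall of that list in both (-2.13 and -1.61). Cd93, a C-type lectin of endothelium, fell by 1.73 in control. The ETS factor Fli1 was not called, at 64.8 CPM in control input and 65.97 CPM in control IP, nor was S1pr1, the most abundant gene of the list. Of 12 other mural and smooth muscle genes tested, 5 fell in each genotype, or 8 in control and 5 in DTR with the pool as a block. Des, the muscle intermediate filament desmin, fell by 1.77 and 1.63, and Foxf2, the most abundant of them, was not called. Gucy1a3, a soluble guanylate cyclase subunit, was called higher in control (log2 fold change 0.40, adjusted p = 0.0254). Of 3 lymphatic genes tested, Lyve1 and Reln fell in both genotypes, Prox1, which supporting cells also express, was not called, and Pdpn and Ccl21a were listed at 0 in every library.

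Ligands that act on the vessel wall gave a mixed list, of which 24 genes were tested. By limma, in control 5 rose and 9 fell in the IP, and in DTR 6 rose and 8 fell. Over all genes tested 19.3% were called higher and 20.7% lower in control, and 18.6% and 20.5% in DTR. The count of 5 higher genes in control was near its background share. Vegfa, the principal ligand of Kdr, rose in the IP from 42.4 ± 4.54 to 67.9 ± 14.7 CPM in control (log2 fold change 0.65, SE 0.13, adjusted p = 0.000779) and from 49.98 ± 6.39 to 80.8 ± 13.4 CPM in DTR (log2 fold change 0.68, SE 0.13, adjusted p = 0.000575). Adm, adrenomedullin, had the largest rise of the list, with log2 fold changes of 1.92 and 1.497, and Apln, the apelin peptide, had 0.76 and 0.92. Cxcl12, a chemokine and the most abundant gene of the list, rose in both as well. The 3 genes with the largest falls were called lower in both. Aplnr, the apelin receptor, had -1.43 and -1.13, Acvrl1, the endothelial BMP receptor ALK1, -1.34 and -1.40, and Angpt2, the angiopoietin released by endothelium, -1.48 and -1.16. Pdgfb and Angpt1 were not called in either comparison. Vegfa was thus called higher in the IP and its receptor Kdr lower, and Apln higher and its receptor Aplnr lower.

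The next comparison asked which of the 36 genes differed after damage in the IP. Against control IP, 5 of the 36 genes rose in DTR IP, 3 fell and 28 did not pass the test. Over all genes 8.44% were called higher and 7.3% lower, and 22.2% of the 36 were called in either direction. The count of 3 lower genes was near its background share, and that of 5 higher genes somewhat above it. Without quantile normalization 8 rose and 3 fell, and the median log2 fold change of all genes tested was 0.054. The share of all genes called in that setting is not given. Between animals of different genotype, fewer cells of a type and less RNA per cell cannot be told apart in bulk RNA. The median log2 fold change was 0.24 over the 36 genes and -0.0043 over all genes tested, with 25 of 36 above 0. For all 8 genes called, and for 9 of the 36 in all, the 4 DTR IP values did not overlap the 4 control IP values, as for 17% of all genes tested. Of the 5 that rose, 4 encode surface or junction proteins of endothelium and the other is Erg.

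Esam showed the largest difference. Its control IP values were 5.801, 10.04, 4.91 and 4.64 CPM and its DTR IP values 18.3, 15.7, 13.2 and 16.3 CPM, a rise of 2.28-fold (log2 fold change 1.19, SE 0.16, adjusted p = 3.68e-05). Even the control IP library that stood highest, replicate 2, lay below every DTR IP library. Pecam1 had 3.59, 6.02, 3.64 and 3.56 CPM in control IP and 8.52, 7.12, 9.41 and 7.596 CPM in DTR IP (log2 fold change 0.78, SE 0.17, adjusted p = 0.00295). Erg had 2.78, 3.35, 3.44 and 3.24 CPM in control IP and 7.39, 7.37, 6.195 and 4.998 CPM in DTR IP (log2 fold change 0.77, SE 0.18, adjusted p = 0.00566). Both genes had smaller fold changes than Esam.

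Emcn (chr3:137341067-137432185, plus strand) was the most abundant of the 5, with 73.1, 67.5, 62.5 and 61.5 CPM in control IP and 102, 103, 99.2 and 114 CPM in DTR IP (log2 fold change 0.65, SE 0.09, adjusted p = 6.98e-05). Plvap had 3.74, 5.01, 2.65 and 3.53 CPM in control IP and 6.56, 5.198, 5.53 and 8.06 CPM in DTR IP, so the groups nearly touched (log2 fold change 0.58, SE 0.17, adjusted p = 0.0249). The Plvap call was lost when control IP replicate 1 or 3 or DTR IP replicate 4 was left out.

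The 3 genes that fell were Apold1, Slc2a1 and Mfsd2a. Apold1 (chr6:134981718-134986836, plus strand) had 12.9, 16.1, 13.3 and 13.04 CPM in control IP and 8.07, 9.97, 7.98 and 7.27 CPM in DTR IP (log2 fold change -0.76, SE 0.18, adjusted p = 0.00531). Slc2a1 (chr4:119108711-119137983, plus strand) had 74.997, 72.4, 69.2 and 87.6 CPM in control IP and 57.5, 50.1, 41.1 and 55.9 CPM in DTR IP (log2 fold change -0.61, SE 0.13, adjusted p = 0.00302). Mfsd2a had 58.4, 59.3, 57.6 and 59.1 CPM in control IP and 53.8, 53.1, 35.1 and 40.1 CPM in DTR IP (log2 fold change -0.42, SE 0.12, adjusted p = 0.0257). The 4 control values of Mfsd2a lay within 2 CPM of each other, while the DTR values formed 2 pairs, replicates 1 and 2 above replicates 3 and 4. The Mfsd2a call was lost on leaving out control IP replicate 1, 3 or 4 or DTR IP replicate 3 or 4. Apold1, Slc2a1 and Mfsd2a are also 3 of the 8 genes that were not called lower in the control IP.

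**Figure D4:**
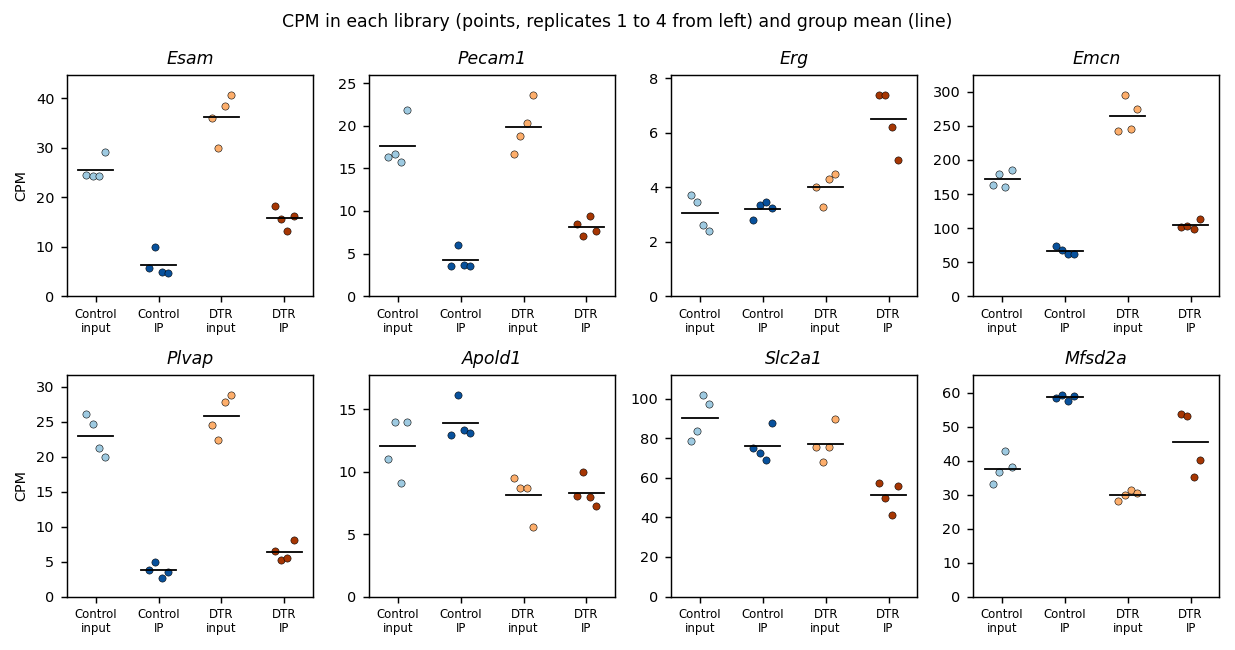
CPM in each library (points, replicates 1 to 4 from left) and group mean (line) for the 8 genes that differed between DTR IP and control IP, on axes that start at 0. Esam, Pecam1, Erg, Emcn and Plvap are higher in every DTR IP library than in every control IP library, and Apold1, Slc2a1 and Mfsd2a are lower.

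The other 28 genes of the 36 were not called by limma or edgeR in the IP after damage, and DESeq2 called Mmrn2 (adjusted p = 0.0226) and Cspg4 (adjusted p = 0.0286) among them. None of the 6 receptors passed by limma, edgeR or DESeq2 (0 with an unadjusted limma p under 0.05), with log2 fold changes from -0.49 (Flt4) to 0.37 (Tie1). Kdr had 9.21, 14.1, 10.02 and 6.898 CPM in control IP and 11.6, 11.7, 17.1 and 10.4 CPM in DTR IP, and the groups overlapped (95% interval of the log2 fold change -0.16 to 0.69). Tek had 9.12, 7.94, 5.26 and 5.002 CPM in control IP and 12.9, 8.79, 5.996 and 10.3 CPM in DTR IP (95% interval -0.11 to 0.79). None of the 6 pericyte genes passed by limma or edgeR and 1 by DESeq2, with 2 at an unadjusted limma p under 0.05. Pdgfrb had 87.2, 89.6, 66.7 and 104 CPM in control IP and 95.7, 124, 115 and 152 CPM in DTR IP, with DTR replicate 1 inside the control range (log2 fold change 0.47, SE 0.17, adjusted p = 0.0669). Cspg4 had 11.3, 13.1, 10.8 and 16.6 CPM in control IP and 19.4, 16.6, 22.7 and 23.97 CPM in DTR IP, with the lowest DTR value barely above the highest control value (log2 fold change 0.60, SE 0.20, adjusted p = 0.0519). Both Pdgfrb and Cspg4 passed when the replicate number was fitted as a block (limma, adjusted p = 0.00775 and 0.00961), which gave 10 genes called (7 higher, 3 lower) in place of 8, where 23.3% of all genes were called. Rgs5 had 32.98, 47.3, 31.9 and 18.4 CPM in control IP and 33.998, 38.98, 53.2 and 32.3 CPM in DTR IP (95% interval -0.15 to 0.70).

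In input, 2 of the 36 genes were higher in DTR, 1 was lower and 33 did not pass the test, where 7.17% of all genes were called higher and 5.21% lower. The median log2 fold change was -0.03 over the 36 genes and -0.021 over all genes tested, and 8.33% of the 36 were called, no more than the background shares. The groups did not overlap for 4 of the 36 and for 19.3% of all genes. Emcn had 164, 179, 159.9 and 185 CPM in control input and 242, 296, 246 and 274 CPM in DTR input, with a clear gap between the groups (log2 fold change 0.62, SE 0.09, adjusted p = 0.00015). Mcam (chr9:44134469-44142727, plus strand) had 62.9, 65.97, 71.4 and 64.3 CPM in control input and 97.9, 82.8, 85.04 and 77.4 CPM in DTR input, with no overlap (log2 fold change 0.36, SE 0.10, adjusted p = 0.0269). Apold1 had 11.03, 13.96, 9.09 and 13.9 CPM in control input and 9.45, 8.67, 8.71 and 5.57 CPM in DTR input, and these groups overlapped (log2 fold change -0.59, SE 0.18, adjusted p = 0.0331). Without quantile normalization 2 rose and 0 fell, since Apold1 was not called, and the share of all genes called is not given. Emcn alone stayed called when control input replicate 1, 2 or 4 was left out.

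Several genes that rose in the IP were not called in input. Esam had 35.98, 30.1, 38.5 and 40.7 CPM in DTR input, each above the control input values given before, and missed the threshold (log2 fold change 0.48, SE 0.16, adjusted p = 0.0605), though it passed with the replicate number as a block (limma, adjusted p = 0.0434), in which 4 of the 36 and 17.7% of all genes were called. Pecam1 had 16.7, 18.8, 20.4 and 23.6 CPM in DTR input, overlapping control input (log2 fold change 0.15, SE 0.17, adjusted p = 0.66). Kdr had 18.4, 19.04, 24.4 and 33.9 CPM in DTR input, Tek 19.2, 31.99, 23.1 and 34.4 CPM and Pdgfrb 167, 207, 205 and 277 CPM, and each of these ranges held at least 3 of its 4 control input values. Their 95% intervals in input were -0.65 to 0.20 for Kdr, -0.52 to 0.37 for Tek and -0.21 to 0.50 for Pdgfrb on the log2 scale.

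Whether the change after damage differed between IP and input was tested as an interaction. None of the 36 genes was called (0 by limma, 0 by edgeR and 0 by DESeq2), where 0.0118% of all genes were called by limma, and 4 of the 36 and 5.12% of all genes had an unadjusted p under 0.05. With the pool as a block 0 of the 36 and 0.235% of all genes were called. Esam had 1.19 in IP and 0.48 in input, a difference of 0.71 (SE 0.23, adjusted p = 0.607). Pecam1 had 0.78 and 0.15 (adjusted p = 0.756), and Slc2a1 had -0.61 and -0.22 (adjusted p = 0.966). Mcam was the only called gene whose signs were opposite, with -0.08 in IP and 0.36 in input (adjusted p of the difference = 0.628). Emcn moved by nearly the same amount in both, with a difference of 0.03 (SE 0.13).

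**Figure D5:**
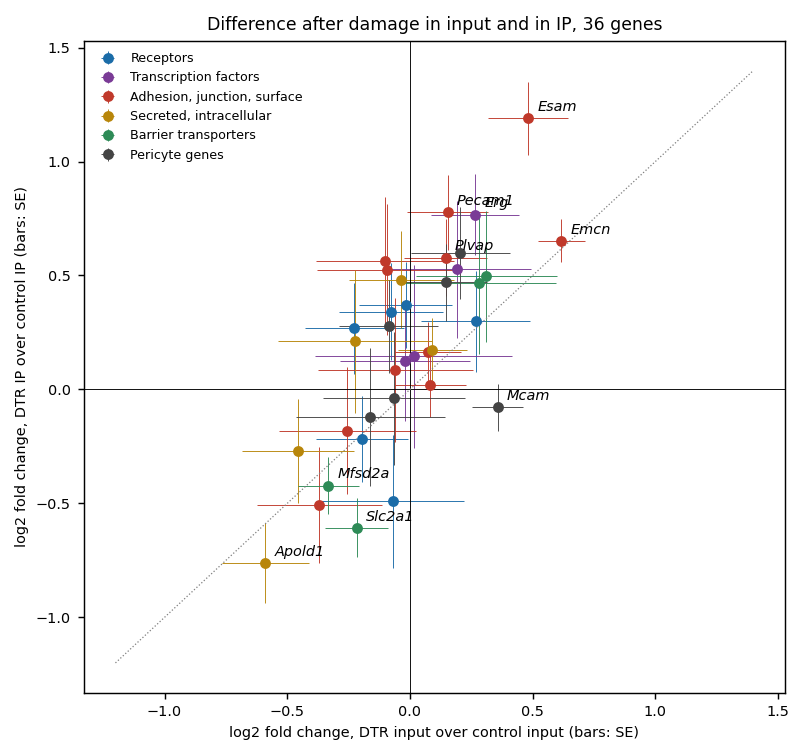
log2 fold change of DTR over control in input (horizontal) and in IP (vertical) for the 36 genes, colored by role, with SE bars. Named genes passed an adjusted p under 0.05 in at least 1 of the comparisons, and the dotted line marks equal change. Esam lies above the line at 0.48 and 1.19, Emcn near it at 0.62 and 0.65, and Mcam right of it at 0.36 and -0.08.

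Genes of the same vessels beyond the 36 were called in different numbers after damage. In input 7.17% of all genes were called higher and 5.21% lower. Among 18 other endothelial genes 0 were called in input by limma (1 at an unadjusted p under 0.05), and in the IP She and Tmem204 rose (0.73 and 0.64 on the log2 scale) and Clec14a, an endothelial lectin, fell from 50.1 ± 4.95 to 29.04 ± 7.41 CPM (log2 fold change -0.84, SE 0.14, adjusted p = 0.00036). Cdh5 and Cldn5 had log2 fold changes of 0.14 and 0.34 in the IP and were not called. Of 12 mural and smooth muscle genes 5 (41.7%) were called in the IP, where 8.44% of all genes were called higher and 7.3% lower. Tagln, Acta2 and Anpep rose, and Cox4i2 and Notch3 fell. Cox4i2, a lung and pericyte isoform of a cytochrome oxidase subunit, fell by 1.62 in the IP and by 1.20 in input on the log2 scale. Of the 24 ligands and partners tested, Nrp1, the VEGF co-receptor, and Angpt4 rose in the IP, and Ackr3, the scavenger receptor for Cxcl12, fell. In input Angpt1, the activating ligand of Tek, fell from 10.3 ± 2.75 to 4.798 ± 0.499 CPM (log2 fold change -1.07, SE 0.29, adjusted p = 0.0188), as did Vegfc and Nrp2. Vegfa, Angpt2 and Pdgfb were not called after damage in either fraction. Of 12 hypoxia response genes, Bnip3 fell in the IP, and in input Pfkfb3 rose and Ndrg1 fell. Hif1a, the most abundant of them, was not called. With the replicate number as a block 3 other endothelial genes rose and 3 fell in the IP. Of the ligands and partners 4 rose and 2 fell in the IP and 1 rose and 5 fell in input. Of the mural genes 1 rose and 2 fell in input, of the lymphatic genes 1 fell in the IP, and of the hypoxia genes 1 rose and 2 fell in the IP.

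Some lists of other cell types also moved with damage. Over all genes 8.44% were called higher and 7.3% lower in the IP, and 7.17% and 5.21% in input. Of 10 macrophage genes 7 rose in the IP and 7 in input, with summed levels of 32.1, 29.6, 23.4 and 20.6 CPM in control IP and 80.1, 50.1, 68.2 and 74.1 CPM in DTR IP. In input these sums were 132, 125, 123 and 131 CPM in control and 257, 179, 224 and 287 CPM in DTR. Their most abundant gene was Csf1r, and none of the 10 was at 0 in all libraries. Fcgr1, an Fc receptor, had the largest rise of the list (log2 fold change 2.97 in IP and 2.20 in input). Pecam1 is also made by macrophages and platelets. Of 8 mesenchyme genes 5 rose in the IP and 2 in input, with summed levels of 6229, 5831, 4995 and 5863 CPM in control IP and 7391, 7929, 6411 and 7172 CPM in DTR IP, of which Col1a2 was the most abundant over all libraries, and none was at 0. Of 3 platelet genes tested, Pf4 and Itga2b rose in the IP and Itga2b in input, with summed levels of 13.5, 13.1, 10.1 and 10.2 CPM in control IP and 17.5, 14.1, 16.9 and 19.99 CPM in DTR IP. Schwann cell genes went down, with 2 of 6 called lower in the IP and 5 of 6 in input. By limma 0 of 5 red cell genes were called in either fraction (2 in IP and 4 in input at an unadjusted p under 0.05), and 0 of 6 neuron genes (1 and 0). Of 6 hair cell genes Otof rose in the IP, and of 8 supporting cell and GER genes 5 fell in the IP and 3 in input, where Otoa rose. With the replicate number as a block these counts moved, where 23.3% of all genes were called in the IP and 17.7% in input. In the IP 5 of 6 Schwann cell and 2 of 6 neuron genes were lower, and in input 2 of 5 red cell and 3 of 6 neuron genes were lower. The part of these lists in the differences of the 36 genes was not tested.

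The 36 genes varied together between pools. DTR input replicate 4 held the highest DTR input value for 25 of 36 genes and DTR input replicate 1 the lowest for 19. On the log2 scale, the mean deviation of the 36 genes from their group mean was -0.29 in both libraries of DTR pool 1, and 0.28 and 0.22 in the input and IP of DTR pool 4. In control, IP replicate 2 held the highest IP value for 23 genes and the lowest for 0, with a mean deviation of 0.24, while the input of the same pool deviated by 0.0023. Without that IP library, 28 of 36 genes stayed called in control IP against input, the call lost being that of Eng. After damage in the IP the 8 genes stayed called without it and Ptprb and Abcb1a were added.

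Medians over all genes differed slightly with exon length in control IP against input. The median log2 fold change was 0.05 for genes with under 2 kb of exon and 0.07 for those of 2 to 4 kb. It was -0.09 for genes of 4 to 8 kb and -0.15 for those over 8 kb. Among the 36 genes the medians by exon length were uneven, at -1.41 for 4 genes under 2 kb, -0.12 for 11 genes of 2 to 4 kb, -1.41 for 13 genes of 4 to 8 kb and -1.18 for 8 genes over 8 kb. A smooth trend on exon length and GC content was also removed from each library, a setting chosen after seeing the data. With it the median of the 36 genes in control IP was -1.19 and 30 were called. The share of all genes called in that setting is not given. By the size and separation criteria of the study (absolute log2 fold change of at least 2 for IP against input or 1 for damage, and a separation above 1.5), 2 genes passed in control IP against input, Plvap and Rgs5, where 1.26% of all genes did. None of the 36 passed in DTR IP against input, in DTR IP against control IP or in DTR input against control input, where 0.977%, 2.47% and 2.34% of all genes did. Other annotated genes overlap 14 of the 36, among them Eng, Egfl7, Slc2a1 and Nos3, and reads in the shared stretches cannot be told apart without strand.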

How the data were processed

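Input and IP RNA of 16 libraries from 8 pools was sequenced by the authors after SMART-Seq v4 amplification. By the methods, reads were aligned to GRCm38 with HISAT2 and counted on genes with HTSeq (the submitters' processing notes name TopHat). The annotation release and strand setting are not given in the sources used here. The deposited values are CPM per gene and library, and 100% of values above 0 were whole multiples of 1 read (tolerance 0.01 read), so counts were recovered for edgeR and DESeq2. Of 50316 genes listed, 2587 were NA and 47729 had values. No libraries were identical.

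Quantile normalized CPM, plus 0.5, were taken to log2. The 16994 genes that reached 0.5 CPM in each of the 4 libraries of some group were tested. All groups were fitted together with limma 3.58.1 (R 4.3.3, mean-variance trend, Benjamini-Hochberg over all tested genes, two-sided), and genes were called at an adjusted p under 0.05. Fold changes are on the log2(CPM + 0.5) scale and understate changes of low genes. Separation divides the lowest quantile normalized CPM of the group that lies higher by the highest of the other, each raised to at least 1.08 CPM, the 10th percentile. Overlap between groups was instead read on the deposited CPM, which are the library values printed here. Overlap and separation can therefore differ for a gene. The fit was tested on simulated counts.

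The 36 genes and all other lists were chosen with earlier results of these data known, so no list was tested as a set. Library values are given for Pecam1, Kdr, Tek, Rgs5 and Pdgfrb and, per comparison, for up to 5 called genes a direction with the largest fold change and no overlap. From other lists up to 4 called genes a direction, the most abundant gene and 8 set genes were named. Outside this rule, and chosen after the values were seen, are those of Cspg4 in IP after damage, of Ramp2, Erg and Abcc9 in control IP against input, and of Apold1 and Esam in input after damage. Same-numbered libraries deviated together in every comparison (lowest correlation 0.288), also between control and DTR pools, so the numbers pair the libraries. Deviations were taken from group means, so the mean over other numbers (-0.13 to -0.12) follows from these correlations and adds nothing to them. The main fit has no replicate term, and its p-values, SEs and intervals do not use the pairing. The fit with a replicate block was an alternative, and is given where it changed a call among the 36 genes or moved a list's count of calls by over 1.5 times. Calls with no tool named are those of the main fit. Comparisons of DTR IP with control IP and with DTR input share libraries. Figf and Gucy1a1 were not found in the files under those symbols. Alternatives were no quantile normalization, median centring, pseudocounts of 0.1 and 1, no filter, a 2 CPM filter, the study's criteria, a replicate block, edgeR 4.0.16, DESeq2 1.42.0, and leaving out each library. Positions and exon lengths came from GENCODE M21 (GRCm38), promoters from RefSeq (GRCm38.p6).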

Additional observations from a re-analysis of the deposited data

Results flagged for a closer look

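In 9 of the 144 groups of 4 values (36 genes in 4 groups) the extreme library lay farther from the others than Dixon's 95% critical value for 4 values allows, where chance flags about 1 in 20 groups, or 7.2 of 144. Of these, 4 came from control IP replicate 2, which was the highest of its group for Sox18 (6.344 CPM, the others 2.714 to 2.998), Pecam1 (6.024 CPM, the others 3.564 to 3.645), Apold1 (16.12 CPM, the others 12.95 to 13.34) and Flt4 (1.804 CPM, the others 0.9699 to 1.112). Control input replicate 4 was the highest for Esam (29.16 CPM, the others 24.24 to 24.42) and Pecam1 (21.81 CPM, the others 15.69 to 16.67). DTR IP replicate 4 was the highest for Eng (90.98 CPM, the others 54.56 to 59.96) and DTR input replicate 4 for Mmrn2 (11.63 CPM, the others 9.321 to 9.542). Pdgfrb was lowest in control input replicate 2 (166.9 CPM, the others 198.1 to 204.3). The high Pecam1 and Esam libraries are controls, and their DTR IP values were still above every control IP value.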

How the results depend on the processing

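No called gene of the 36 or of the other lists changed direction under any alternative run. Over genes and alternatives other than the study's criteria, calls of the 36 were kept in 1254 cases and lost in 74. By the study's size and separation criteria the called genes numbered 2 in control IP against input and 0 in DTR IP against input. They numbered 0 in DTR IP against control IP and 0 in DTR input against control input. That setting adds a minimum fold and a separation above 1.5. In DTR IP against control IP, Esam passed the minimum fold (log2 fold change 1.19) and missed the separation (1.37). The lack of a filter gave 25 and 24 called genes for control and DTR IP against input, in place of 29 and 30. Shares over all genes are given only for the main fit, the study's criteria and the replicate block. Leaving out 1 library gave 25 to 29 called genes in control IP against input, 25 to 31 in DTR IP against input, 6 to 11 in DTR IP against control IP, 1 to 3 in DTR input against control input and 0 to 0 in the interaction. The low value of 1 came on leaving out control input replicate 1, 2 or 4. Apold1 in input also lost its call without quantile normalization, with median centring and by edgeR. The call lost under the most alternatives was that of Eng in control IP against input (9 alternatives).

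With the replicate block the called genes numbered 31 in control IP against input, 32 in DTR IP against input, 10 in DTR IP against control IP, 4 in DTR input against control input and 0 in the interaction, and it removed no call among the 36. With the replicate block and the exon length and GC trend removed together, 13 genes were called in DTR IP against control IP (10 higher, 3 lower) and 26% of all genes, adding Tie1, Eng, Mmrn2, Pdgfrb and Cspg4. Scaling moved the median of all genes by under 0.1 on the log2 scale. Genes on few reads, such as Abcb1a and Flt4, limit what these libraries can show.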

Other observations

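The IP share of input differed between pools of the same genotype. For Kdr it was 31.4, 60.1, 39.5 and 23.2% in control pools 1 to 4 and 63.03, 61.7, 70.3 and 30.7% in DTR pools 1 to 4. For Tek it was 29.9, 28.9, 22.9 and 16.9% and 67.04, 27.5, 25.97 and 30.1%, so that DTR pool 1 stood apart. Emcn varied least of these, with 44.7, 37.8, 39.1 and 33.3% and 41.99, 34.9, 40.3 and 41.5%. Pecam1 had 22.02, 36.1, 23.2 and 16.3% and 51.1, 37.8, 46.2 and 32.1%, and Esam 23.8, 41.4, 20.2 and 15.9% and 50.8, 52.1, 34.3 and 39.9%. Neuron genes varied widely with replicate number, with summed levels of 732, 682, 212 and 179 CPM in control input and 631, 373, 199.6 and 73.2 CPM in DTR input, and Prox1, listed with the lymphatic genes, had 31.4 ± 6.68 CPM in control input and 7.49 ± 5.31 CPM in DTR input (log2 fold change -2.27, SE 0.51, adjusted p = 0.00516).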
